A study of Rattus norvegicus with 18 samples.

Results

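The mammalian circadian clock is a transcription loop that runs in almost every cell, and 10 of its genes were followed here in the cerebral cortex of rats with subarachnoid hemorrhage (SAH), bleeding into the space around the brain. The genes were taken by symbol from the deposited count table: the activators Arntl and Clock, the repressors Per1, Per2, Per3 and Cry1, the nuclear receptors Nr1d1 and Nr1d2, and the output factors Dbp and Tef. Each symbol matched 1 of 30735 gene rows, and all 10 passed the filter on low counts that left 18444 genes for testing. In the table, Arntl is listed as ENSRNOG00000014448, Cry1 as ENSRNOG00000006622, Nr1d1 as ENSRNOG00000009329 and Dbp as ENSRNOG00000021027. Rows were matched by symbol alone, without measured values, but the 10 genes were chosen with earlier results of these data known.

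In the loop, the proteins of Arntl (also called Bmal1) and Clock form a dimer that switches on the Per, Cry, Nr1d and Dbp genes through a DNA motif named the E-box. The PER and CRY proteins then inhibit this dimer, while the Nr1d receptors (REV-ERB) repress Arntl through the ROR element. In a running clock the Arntl transcript therefore peaks roughly opposite to Nr1d1 and Dbp, and the level of a single gene in tissue taken at a single hour depends on that hour. In the cortex the clock is entrained by the light cycle, by hormones of the adrenal gland and by neuronal activity, and Per1 also responds directly to the last 2 of these.

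Whole-cortex RNA was sequenced from 18 adult Sprague Dawley rats aged 8 to 10 weeks, kept under fixed light and dark cycles, with 1 library per rat and 6 rats per group. The sham group had the neck surgery under pentobarbital without the puncture, and no day is given for it in the labels. The SAH 1d and SAH 7d groups had a vessel at the skull base punctured by a filament passed through the carotid artery, and were sampled at day 1 and day 7. The hour of collection is not given in the sources used here, so a group difference and a difference in collection time cannot be told apart, and no phase in hours was computed. Neither source gives the sex of the animals, the labels speak of both sides of the cortex and the methods of the operated side, and in bulk tissue fewer cells of a type and less RNA per cell cannot be told apart.

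Total counts ran from 27270026 to 38271014 per library, and each clock gene had at least 254 counts in every library. Levels are given as CPM, counts per 1e+06 counts after scaling by the trimmed mean of M-values. Libraries of 1 group had a median Spearman correlation with each other between 0.961 and 0.964, apart from 2 libraries. SAH 1d-3 had 0.939 and SAH 7d-5 had 0.925. In SAH 1d-3 the 5 measured markers of cortical excitatory neurons summed to 648 CPM, the lowest in its group, and those of monocytes and macrophages to 621 CPM, the highest. In SAH 7d-5 the same lists summed to 585 and 8218 CPM. Results that rest on these libraries, called here the libraries that stand apart, are given with and without them.

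Promoter windows of 4 genes held letter matches to motifs that clock factors bind. They are printed from RefSeq on the rat build GRCr8, from 250 bases before the start of transcription to 50 bases after it. The count table carries no coordinates and was made on another build. Windows were found for 9 of the 10 genes, 11 windows in all, with Arntl listed as Bmal1. Both strands were searched for the E-box CACGTG, the D-box TTATGTAA bound by Dbp and Tef, the ROR element TAGGTCA or TGGGTCA, and the cyclic AMP element TGACGTCA. None of these letter strings overlapped another in the windows shown, and capitals mark the match.

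Arntl, chr1:176766078-176766377, plus strand, with a ROR element that starts 16 bases before the start site:
Arntl: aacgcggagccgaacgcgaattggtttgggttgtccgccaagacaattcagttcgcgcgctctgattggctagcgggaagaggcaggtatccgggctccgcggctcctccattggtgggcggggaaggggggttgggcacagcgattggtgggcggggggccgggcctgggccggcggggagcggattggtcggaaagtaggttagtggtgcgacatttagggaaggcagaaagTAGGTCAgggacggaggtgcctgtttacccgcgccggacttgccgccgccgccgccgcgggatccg
Per2, chr9:99496944-99497243, minus strand, with a D-box that starts 192 bases before the start site:
Per2: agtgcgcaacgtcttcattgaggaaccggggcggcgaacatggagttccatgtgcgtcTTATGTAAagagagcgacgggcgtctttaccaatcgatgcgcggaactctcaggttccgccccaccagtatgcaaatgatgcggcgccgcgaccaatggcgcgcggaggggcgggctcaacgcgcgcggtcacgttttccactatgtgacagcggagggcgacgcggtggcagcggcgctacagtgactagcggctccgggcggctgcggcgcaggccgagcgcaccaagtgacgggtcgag
Nr1d1, the second of its windows, chr10:84229405-84229704, minus strand, with an E-box that starts 191 bases before the start site:
Nr1d1: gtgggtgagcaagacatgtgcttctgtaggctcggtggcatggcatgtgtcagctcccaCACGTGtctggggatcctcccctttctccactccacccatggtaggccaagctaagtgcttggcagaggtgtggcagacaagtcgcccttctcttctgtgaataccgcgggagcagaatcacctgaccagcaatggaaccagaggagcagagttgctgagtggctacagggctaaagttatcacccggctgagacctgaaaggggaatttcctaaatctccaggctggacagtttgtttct
Tef, chr7:115206577-115206876, plus strand, with an E-box that starts 198 bases before the start site:
Tef: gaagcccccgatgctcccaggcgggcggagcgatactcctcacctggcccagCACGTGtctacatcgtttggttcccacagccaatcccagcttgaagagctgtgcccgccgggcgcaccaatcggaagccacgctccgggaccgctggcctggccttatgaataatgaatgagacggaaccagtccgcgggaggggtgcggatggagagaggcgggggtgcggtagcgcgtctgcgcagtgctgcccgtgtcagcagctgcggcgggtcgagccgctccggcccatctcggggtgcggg

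The other windows held none of the 4 motifs, which says only that these letters are not within them. Among all 33469 promoters of the same length, 6.42% hold the E-box, 0.893% the D-box, 6.60% the ROR element and 1.83% the cyclic AMP element. A match is a description of the sequence and not a measured binding site.

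On the length-corrected FPKM scale the output and receptor genes had the highest levels and the Per genes mostly the lowest. Tef had a mean of 69.0 FPKM over the 18 libraries, Dbp 63.0, Nr1d1 37.6 and Nr1d2 33.4. Arntl followed at 14.8, then Clock and Per1 at 9.51 each, Cry1 at 9.02, Per2 at 7.88 and Per3 at 4.41. The library ranges of neighbours in this order overlapped throughout, with Dbp spanning 9.22 to 104 FPKM and Tef 25.3 to 84.8 FPKM.

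**Figure D1:**
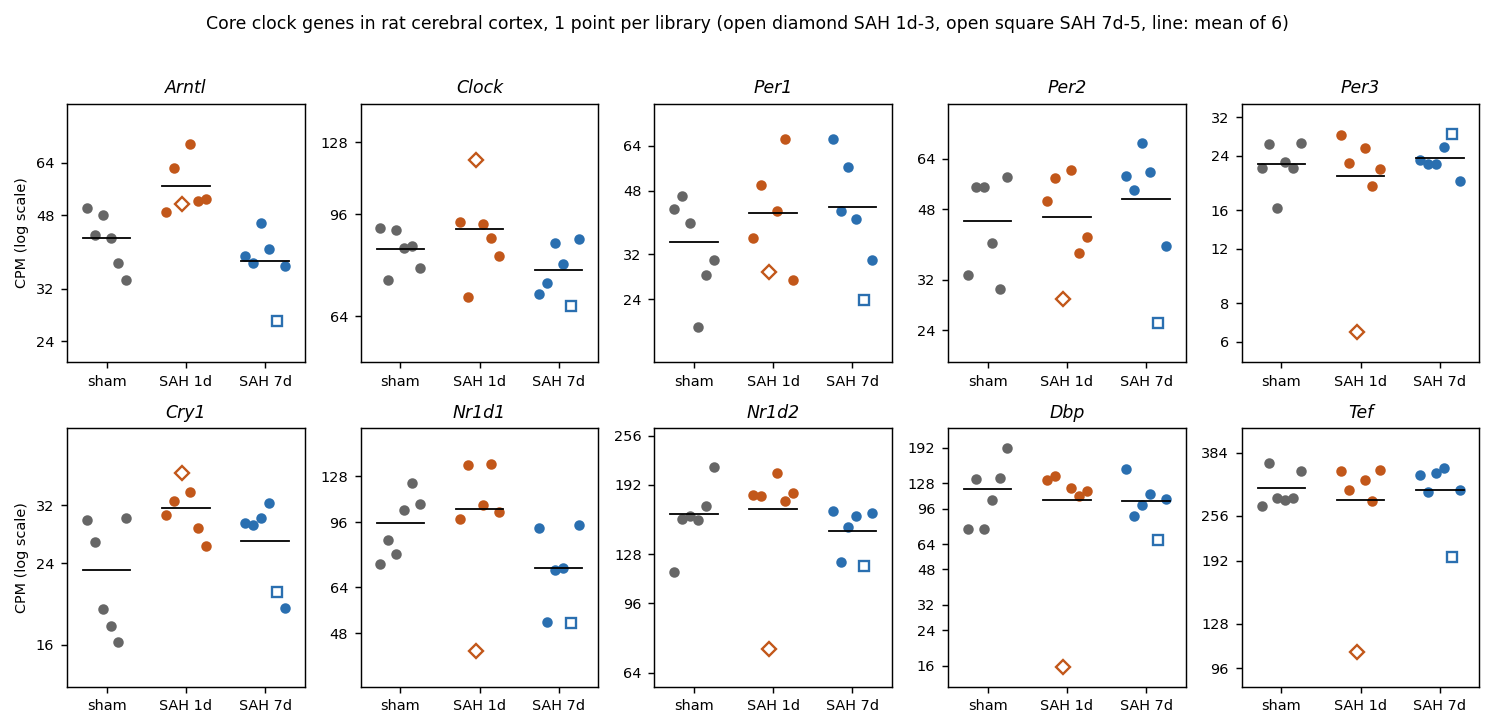
Level of each of the 10 clock genes in CPM (vertical axis, log scale, different range in each panel) by group (horizontal axis), with 1 point per library and a line at the mean of 6 libraries. The open diamond is SAH 1d-3 and the open square SAH 7d-5. The 6 SAH 1d libraries of Arntl lie above the 6 SAH 7d libraries, and Dbp in SAH 1d-3 lies at 15.7 CPM.

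Among the activators, Arntl was the only one of the 10 genes to pass the test in SAH 1d against sham. Arntl had 33.6 CPM in its lowest sham library, a median of 42.7 and 49.9 in the highest. At SAH 1d these values were 48.9, 52.2 and 70.8 CPM. Only the lowest SAH 1d library, at 48.9 CPM, fell below the highest sham library, so the groups overlapped slightly. The log2 fold change was 0.41 ± 0.12 (SE, n = 6 and 6 rats), a rise of 1.33 times, with an adjusted p of 0.0213 (edgeR quasi-likelihood test, Benjamini-Hochberg over 18444 genes). Without SAH 1d-3 it was 0.44 ± 0.12 with an edgeR adjusted p of 0.0141, and the call held when each of the 12 rats was left out in turn.

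That 1 of 10 genes was called is to be read against 25.4% of all tested genes in the same comparison. By an unadjusted p under 0.05, 2 of 10 clock genes and 38.8% of all genes passed. No clock gene had groups that did not overlap in CPM, compared with 13.3% of all genes. The median size of the log2 fold change was 0.13 over the 10 genes and 0.29 over all genes tested.

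By SAH 7d, Arntl was at 26.8 CPM in its lowest library, 37.6 at the median and 45.9 in the highest. All 6 libraries lay below all 6 of SAH 1d. Against SAH 1d the log2 fold change was -0.59 ± 0.13 (SE, n = 6 and 6), a level 0.663 times as high, with an edgeR adjusted p of 0.0452. Arntl was the only clock gene called, and 1.37% of all genes were. It was also the only one with groups that did not overlap, which 3.05% of all genes showed, and the only one with an unadjusted p under 0.05, which 14.7% of all genes had. Against sham the SAH 7d value was -0.18 ± 0.13 with an edgeR adjusted p of 0.475. The SAH 7d call lay close to the threshold. It was lost when any 1 of 9 of the 12 rats was left out, and with another size factor (edgeR adjusted p of 0.0527), while its size stayed between -0.66 and -0.51 in all of these fits.

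Clock, whose protein pairs with that of Arntl, varied little. Clock had a median of 84.3 CPM in sham, 90.0 at SAH 1d and 76.0 at SAH 7d, and the groups overlapped. Its log2 fold changes were 0.12 ± 0.11 in SAH 1d against sham, -0.12 ± 0.08 in SAH 7d against sham and -0.24 ± 0.12 in SAH 7d against SAH 1d, with edgeR adjusted p of 0.467, 0.470 and 0.402. SAH 1d-3 was its highest library, at 119 CPM.

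In SAH 1d against sham, where Arntl was called, markers of several cell types were called too. All genes had 25.4% called there, and 28.5% without SAH 1d-3. Of 8 neuron markers 7 fell in SAH 1d against sham, and their sum was 6206 to 9718 CPM in sham, 5079 to 6111 at SAH 1d and 2490 to 8826 at SAH 7d. The 7 astrocyte markers summed to 3221 to 5463 CPM in sham, 5651 to 6908 at SAH 1d and 3946 to 7340 at SAH 7d, with 1 marker called up and 1 called down in SAH 1d against sham. The 6 choroid plexus markers had 3 called up at SAH 1d, and 5 without SAH 1d-3, and summed to 6.74 to 70.7 CPM in sham, 24.4 to 1092 at SAH 1d and 13.2 to 54.5 at SAH 7d. Of 5 monocyte and macrophage markers 3 rose at SAH 1d, with sums of 50.3 to 91.8 CPM in sham, 94.3 to 621 at SAH 1d and 92.1 to 8218 at SAH 7d. Both tested neutrophil markers of 6 rose at SAH 1d, and 1 without SAH 1d-3, with sums of 1.92 to 5.10, 6.33 to 63.0 and 3.32 to 90.5 CPM in the 3 groups. Calls in SAH 1d against sham were 0 of 6 for oligodendrocytes and 0 of 5 for red cells. Endothelial cells had 1 of 5 and microglia 2 of 7, or 5 of 7 without SAH 1d-3. In SAH 7d against SAH 1d no neuron, astrocyte, choroid plexus, monocyte and macrophage or neutrophil marker was called, beside 1.37% of all genes. Microglia had 1 of 7 called there, higher at SAH 7d, and endothelial cells had 0 of 5. With both libraries that stand apart left out, 13.6% of all genes were called. Of neuron markers 4 of 8 and of astrocyte markers 2 of 7 were then called. Choroid plexus had 4 of 6, monocytes and macrophages 1 of 5 and neutrophils 1 of 2. Microglia had 3 of 7 and endothelial cells 2 of 5. Oligodendrocytes and red cells had no call in either fit. No marker of these lists was without reads in any group. Their part in the Arntl values was not tested.

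Among the repressors, Cry1 came closest to a call. Cry1 ranged from 16.2 to 30.0 CPM in sham with a median of 22.9, from 26.2 to 37.5 with a median of 31.6 at SAH 1d, and from 19.2 to 32.3 with a median of 29.1 at SAH 7d. Sham fell into 3 libraries below 20 CPM and 3 above 26 CPM, and the upper ones overlapped with SAH 1d. The log2 fold change in SAH 1d against sham was 0.45 ± 0.16, with an unadjusted edgeR p of 0.0172 (n = 6 and 6) and an adjusted p of 0.0615. In SAH 7d it was 0.21 ± 0.19 against sham and -0.24 ± 0.14 against SAH 1d, with edgeR adjusted p of 0.561 and 0.468. Without sham-1 or without sham-6 the SAH 1d difference passed, with edgeR adjusted p of 0.0362 and 0.0412.

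The 3 Per genes, whose proteins carry the CRY proteins onto the activator dimer, did not pass in any comparison. Per1 had medians of 35.0 CPM in sham, 38.8 at SAH 1d and 41.2 at SAH 7d, with libraries from 20.1 to 66.9 CPM. Its log2 fold change was 0.27 ± 0.24 in SAH 1d and 0.33 ± 0.26 in SAH 7d, both against sham. Per2 had medians of 47.0, 45.7 and 55.7 CPM in the same order. Its lowest library was SAH 1d-3 in the one SAH group, at 28.7 CPM, and SAH 7d-5 in the other, at 25.0 CPM. Per3 stayed between 16.3 and 28.4 CPM in 17 of 18 libraries and was at 6.44 CPM in SAH 1d-3. Over the 3 comparisons the Per genes had log2 fold changes from -0.14 to 0.33 and edgeR adjusted p of 0.429 or more.

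Nr1d1, the first of the 2 receptor genes, had its lowest median at SAH 7d, without a call. Nr1d1 ran from 74.2 to 123 CPM in sham with a median of 94.98, from 43.0 to 138 at SAH 1d with a median of 105, and from 51.2 to 94.6 at SAH 7d with a median of 71.8. The SAH 7d libraries overlapped with sham in the range from 74.2 to 94.6 CPM. Against sham the log2 fold change was -0.40 ± 0.18 (unadjusted edgeR p of 0.0455, n = 6 and 6, adjusted p of 0.319), and against SAH 1d it was -0.53 ± 0.25 with an adjusted p of 0.352. In SAH 7d against sham 0 of 10 clock genes were called, as were 0% of all genes. By an unadjusted p under 0.05, Nr1d1 alone of the 10 passed, beside 15.4% of all genes, and no clock gene had groups that did not overlap, which 1.23% of all genes showed. A DESeq2 Wald test called 459 genes in this comparison, and 0 of the 10 were among them.

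Nr1d2 had medians of 158 CPM in sham, 180 at SAH 1d and 155 at SAH 7d. Its log2 fold changes were 0.04 ± 0.21, -0.14 ± 0.14 and -0.18 ± 0.20 in SAH 1d against sham, SAH 7d against sham and SAH 7d against SAH 1d. With both libraries that stand apart left out, 3 of 10 clock genes were called in SAH 7d against SAH 1d, all lower at SAH 7d, beside 13.6% of all genes. These were Arntl at -0.54 ± 0.11, Nr1d1 at -0.61 ± 0.16 and Nr1d2 at -0.29 ± 0.08, with edgeR adjusted p of 0.00761, 0.0258 and 0.0423. With the same libraries left out, 1 of 10 was called in SAH 1d against sham, beside 28.5% of all genes, and 0 of 10 in SAH 7d against sham. Arntl and the 2 receptors that repress it were all lower at SAH 7d than at SAH 1d in this fit.

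The output factors Dbp and Tef, which bind the D-box and carry the rhythm to other genes, passed the test in no comparison. Dbp ran from 75.7 to 192 CPM in sham with a median of 120, from 15.7 to 139 at SAH 1d with a median of 119, and from 66.8 to 151 at SAH 7d with a median of 104. Its log2 fold change in SAH 1d against sham was -0.18 ± 0.39, with a 95% interval of -0.95 to 0.59, and 0.05 ± 0.21 without SAH 1d-3. In SAH 7d it was -0.20 ± 0.24 against sham and -0.03 ± 0.38 against SAH 1d. Tef had medians of 288, 312 and 318 CPM, and its log2 fold changes were -0.11 ± 0.22, -0.01 ± 0.13 and 0.10 ± 0.24 in the same order of comparisons. The edgeR adjusted p of these 6 tests was 0.654 or more, and the Dbp interval in SAH 1d against sham reaches past the size of the Arntl change in both directions.

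**Figure D2:**
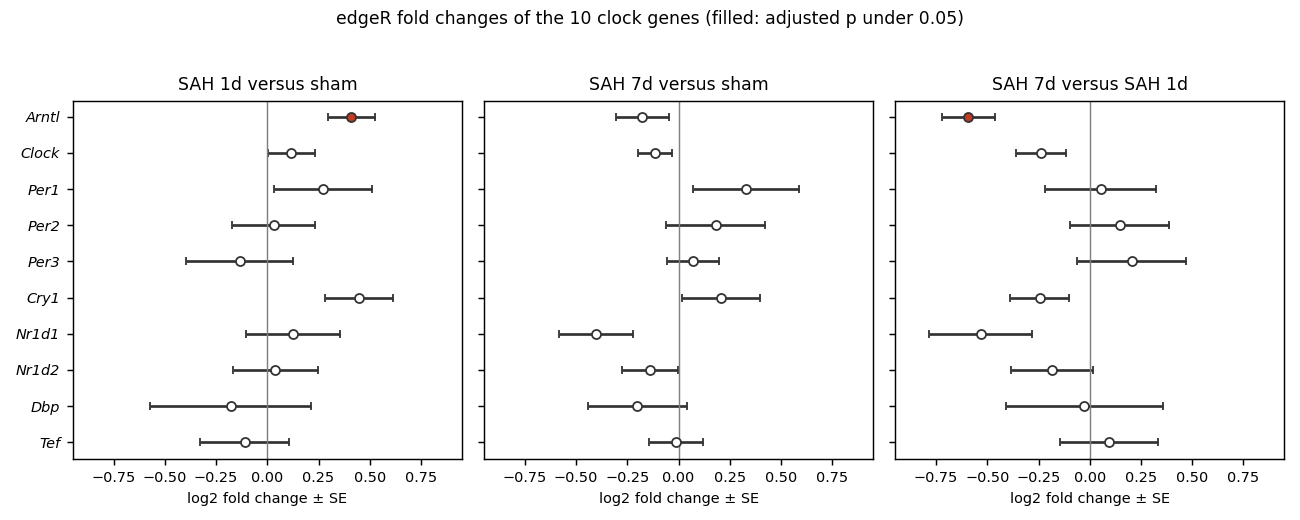
Log2 fold change (horizontal axis) of each clock gene (vertical axis) in the 3 comparisons, with bars of 1 SE from edgeR fits of 6 against 6 libraries. Filled points passed an adjusted p under 0.05. Arntl is filled at 0.41 in SAH 1d versus sham and at -0.59 in SAH 7d versus SAH 1d, and no point is filled in SAH 7d versus sham.

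Over the 18 libraries Dbp was the most variable clock gene within groups, and a single library carried most of it. Its SD of log2 CPM within groups was 0.80, above that of 86.8% of tested genes, and 0.37 without the libraries that stand apart, above 70.3%. Without those libraries Per1 was the most variable, with an SD of 0.46, above 77.8% of tested genes. Over the 18 libraries Arntl and Clock had SDs of 0.23 and 0.19, at 28.5% and 19.6%. Within sham alone the SD was 0.53 for Dbp, 0.45 for Per1 and 0.12 for Clock.

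SAH 1d-3 stood below the other 5 SAH 1d libraries across most of the loop. The log2 difference was -2.98 for Dbp, and 0.564% of all tested genes were as low or lower in that library. It was -1.84 for Per3, -1.57 for Tef, -1.42 for Nr1d1 and -1.32 for Nr1d2, followed by -0.75 for Per2 and -0.56 for Per1. Arntl differed by -0.16, Cry1 by 0.31 and Clock by 0.50. Thus 5 of 10 clock genes lay at or below -1 in this library, as did 11.7% of all genes, and 7 of 10 lay at or below -0.5, as did 25.4% of all genes. These are differences of a single rat, chosen because its library stands apart, and carry no test.

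Other clock genes of the same rat were also far from the rest of the group. Hlf, a D-box factor of the family of Dbp and Tef, differed by -2.09 on the log2 scale, Ciart, a repressor of the activator dimer, by -1.44, and Usp2, a deubiquitinase with a clock rhythm, by -1.38. Nfil3, which represses through the D-box, differed by 1.93, and Noct, an output gene also known as Nocturnin, by 2.29. Npas2, which can take the place of Clock, differed by -1.05. Ciart, Hlf, Usp2 and Noct were named here after their values were seen. In the same library the neutrophil markers summed to 63.0 CPM, against a group median of 9.17, and red cell markers to 189 CPM against 82.1. The part of cell makeup in the clock values was not tested, and the hour at which this rat was killed is not given.

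SAH 7d-5 also lay low, in 5 of the same genes and in Arntl. Per2 differed from the other 5 SAH 7d libraries by -1.13 on the log2 scale, Per1 by -0.93, Dbp by -0.72, Tef by -0.71, Arntl by -0.55 and Nr1d1 by -0.54. Per3 differed by 0.32 and was the highest of its group. In all 6 of 10 clock genes lay at or below -0.5, beside 28.0% of all genes in this library. Its neuron markers summed to 2490 CPM and its microglia markers to 2819 CPM, against group medians of 8037 and 669. The part of this makeup in the clock values was not tested.

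**Figure D3:**
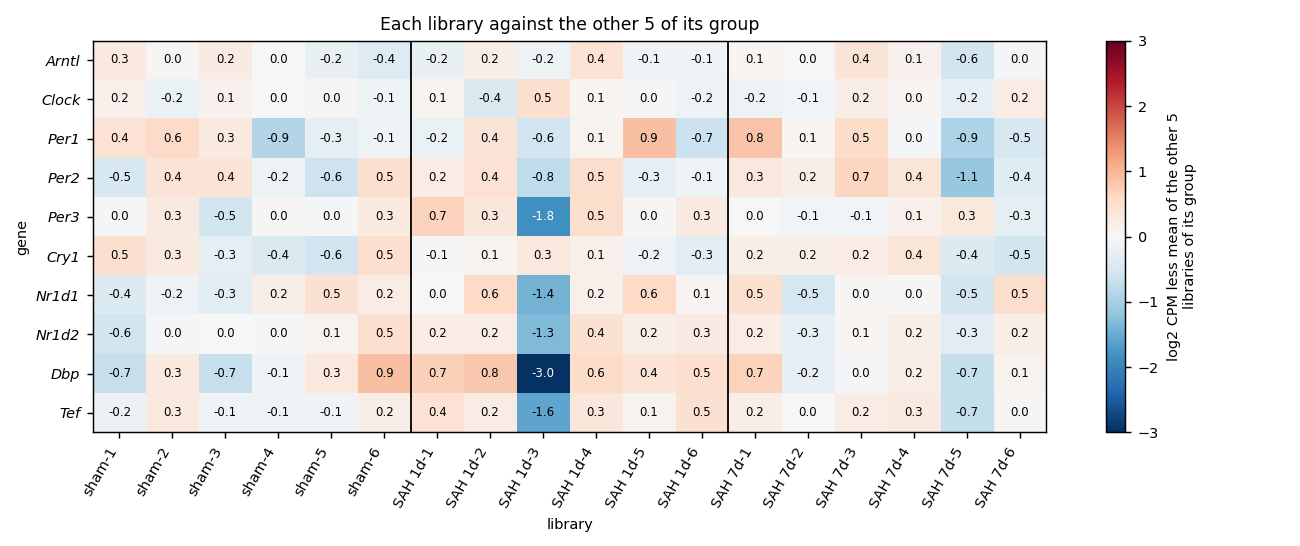
Log2 CPM of each clock gene (rows) in each of the 18 libraries (columns) less the mean of the other 5 libraries of its group, with red for higher and blue for lower and the value rounded to 1 decimal in each cell. The column of SAH 1d-3 reaches -2.98 at Dbp and the column of SAH 7d-5 reaches -1.13 at Per2.

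A balance of the loop was taken as the mean log2 CPM of Per1, Per2, Per3, Dbp, Tef, Nr1d1 and Nr1d2 less that of Arntl and Clock. It was 0.390 ± 0.347 (SD, n = 6) in sham, 0.0658 ± 0.690 at SAH 1d and 0.511 ± 0.191 at SAH 7d. Without SAH 1d-3, which had -1.32, SAH 1d had 0.344 ± 0.131 (n = 5). The remaining 17 libraries lay between -0.03 and 0.90, and sham alone spanned this whole range, from -0.03 in sham-1 to 0.90 in sham-6. No library other than SAH 1d-3 had its balance outside the sham range. The groups were not tested for a difference in this score, since its genes were chosen together.

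The log2 level of Nr1d1 less that of Per2, genes whose peaks fall at different hours in a running clock, was 1.11 ± 0.545 (SD, n = 6) in sham, 1.14 ± 0.455 at SAH 1d and 0.540 ± 0.548 at SAH 7d. The values overlapped, with sham from 0.532 to 2.02 and SAH 7d from -0.0551 to 1.28. SAH 7d-2, SAH 7d-3 and SAH 7d-4 lay below the lowest sham library. This contrast was chosen after the values were seen and is a description.

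Among the 10 clock genes, Nr1d2, Tef, Nr1d1 and Per3 were the most like Dbp in level across rats within groups. With the group mean subtracted, Dbp and Nr1d2 had a Pearson r of 0.94 over 18 libraries and 0.77 over the 16 without the libraries that stand apart. Dbp and Tef had 0.92 and 0.60, Dbp and Nr1d1 0.87 and 0.60, and Dbp and Per3 0.86 and 0.61. Among 18443 other genes, Nr1d2 stood in place 2 by its correlation with Dbp, Tef in place 12, Nr1d1 in place 160 and Per3 in place 172. Over the 16 libraries these places were 42, 590, 601 and 518, so the high places rested on the libraries that stand apart. All values of a library share its depth, its cell makeup and its hour of collection, so these are descriptions.

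The 5 genes most like Dbp over 18 libraries were Cyb5d2 (r of 0.95), Nr1d2 (0.94), Map2k6 (0.94), Vps33a (0.93) and Cygb (0.93). Over the 16 libraries the first place went to Ciart at 0.97, ahead of Wrap53 at 0.90, Grina at 0.89 and Hhipl1 at 0.88. The 5 most like Arntl over 18 libraries were Gpt2 (0.87), Prex2 (0.87), Fzd4 (0.83), Msl1 (0.83) and Myrip (0.82). Npas2, whose protein also pairs with that of Arntl, was in place 148 at 0.69, and 0.67 over 16 libraries.

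The correlation with Arntl was tested for the 9 other genes, since Arntl peaks opposite to its targets in a running clock. Over 18 libraries none of the 9 passed (permutation within groups, two-sided, Benjamini-Hochberg over 9). Per2 had r of 0.57 and rho of 0.56, with permutation p of 0.0262 and 0.0267 and an adjusted p of 0.155 for r. Per1 had r of 0.54 and rho of 0.56, with permutation p of 0.0344 and 0.0252 and again an adjusted p of 0.155. The other 7 lay between -0.01 and 0.32. Without the 2 libraries farthest from the median of Arntl, r was 0.23 for Per2 and 0.42 for Per1, so that the relation with Per2 rested on those libraries. Dbp changed from 0.07 over 18 libraries to -0.57 when both libraries that stand apart were left out, where permutation gave p of 0.0367, adjusted to 0.33, and to -0.19 without the 2 libraries farthest in Arntl.

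Within the 6 sham rats, the correlations of Arntl with Dbp and the Nr1d genes were negative but did not pass adjustment. Dbp had r of -0.94 and rho of -0.94 with Arntl, with exact permutation p of 0.00694 and 0.0167 over the 720 pairings. The highest Dbp, 192 CPM, and the lowest Arntl, 33.6 CPM, were in the same rat, sham-6. For Nr1d1 the values were r of -0.87 and rho of -0.94 (exact permutation p of 0.0292 and 0.0167), and for Nr1d2 r of -0.86 and rho of -0.77 (exact permutation p of 0.0167 and 0.103). Adjusted over the 27 correlations within groups, the permutation p for r was 0.0937, 0.158 and 0.113. With the 2 sham libraries farthest from the median of Arntl left out, r was -0.83 for Dbp, -0.94 for Nr1d1 and -0.70 for Nr1d2 over 4 rats.

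In SAH 7d the gene that passed adjustment was Per2. Per2 had r of 0.96 and rho of 1.0 with Arntl, with exact permutation p of 0.00139 and 0.00278, and the first became 0.0375 after adjustment over 27. The value of r was 0.82 without SAH 7d-5 (n = 5) and 0.82 without the 2 libraries farthest from the median of Arntl. Dbp had r of 0.64 with Arntl in SAH 7d, and -0.08 without SAH 7d-5. At SAH 1d the lowest exact permutation p of the 9 genes was 0.132, and r ran from -0.34 for Clock to 0.69 for Per2. In sham, Per2 had r of -0.14 with Arntl, and 0.88 without the 2 libraries farthest from the median of Arntl. The difference of these correlations between groups was not tested.

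**Figure D4:**
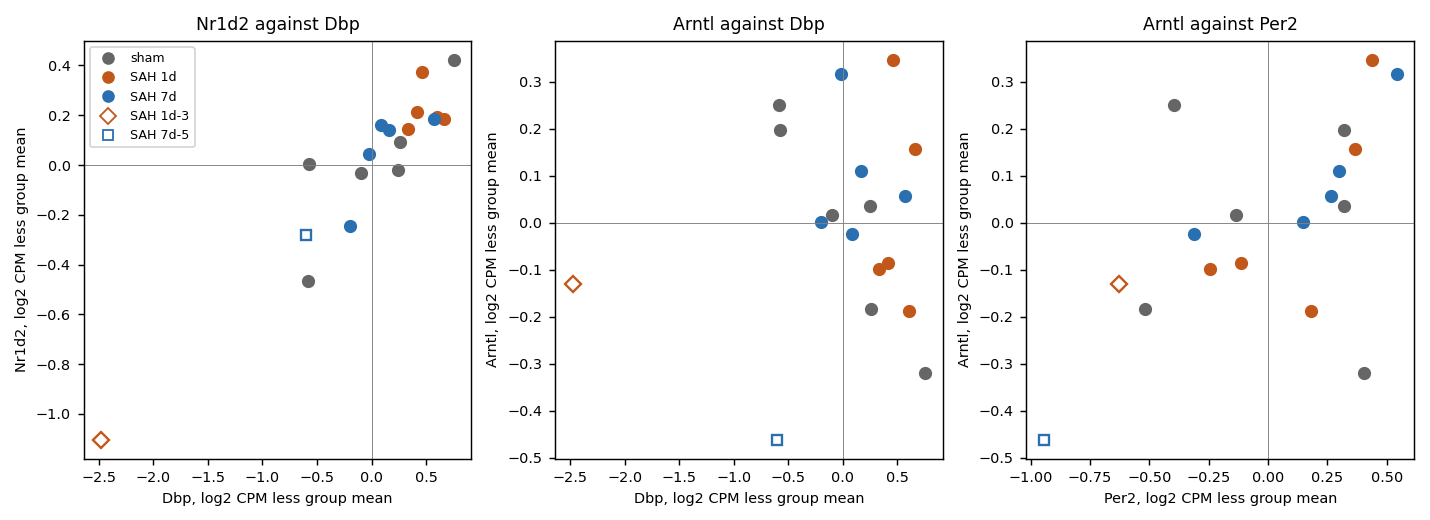
Log2 CPM less the group mean of Nr1d2 against Dbp, Arntl against Dbp and Arntl against Per2, with 1 point per library coloured by group. The open diamond, SAH 1d-3, and the open square, SAH 7d-5, lie apart, and Nr1d2 follows Dbp with r of 0.94 while Arntl has r of 0.07 with Dbp and 0.57 with Per2 over the 18 libraries.

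Outside the 10, the list of other clock genes held 22 symbols, of which 21 were tested. In SAH 1d against sham 4 rose and 1 fell, 5 of 21 beside the 25.4% of all genes, and the median log2 fold change was 0.05. Rora, an activator at the ROR element, rose by 1.63 ± 0.26 on the log2 scale, with an edgeR adjusted p of 0.00119. It went from 0.396 to 1.03 CPM in sham to 1.64 to 2.93 CPM at SAH 1d. These levels are low, with a mean of 0.378 FPKM in sham and 1.28 FPKM at SAH 1d. Nfil3 rose by 1.58 ± 0.38, with an edgeR adjusted p of 0.00942, and by 1.04 ± 0.20 without SAH 1d-3, where it had 67.0 CPM. Timeless, a replication fork protein named after a fly clock gene, rose by 1.18 ± 0.17, from a median of 2.51 to 5.56 CPM. Csnk1d, a kinase that marks PER proteins for breakdown, rose by 0.28 ± 0.06, from 138 to 168 CPM at the median. Npas2 fell by 0.62 on the log2 scale (SE 0.16, edgeR adjusted p of 0.0145), from a median of 99.96 CPM in sham to 69.9 CPM at SAH 1d, and by 0.49 without SAH 1d-3. All 5 had groups that did not overlap, as did 13.3% of all genes.

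Rora acts on the same motif as the Nr1d receptors. Without SAH 1d-3 the count was 6 of 21, beside 28.5% of all genes, with Bhlhe41, a repressor at the E-box, added at 0.65 ± 0.10. In SAH 7d against sham 0 of 21 passed. In SAH 7d against SAH 1d Rora alone passed, 1 of 21 beside 1.37% of all genes, with -1.75 ± 0.23 and an edgeR adjusted p of 0.00259. Its groups did not overlap, which 3.05% of all genes showed. With both libraries that stand apart left out 5 of 21 passed, beside 13.6% of all genes, all lower at SAH 7d: Rora, Timeless, Ciart at -0.96 ± 0.21, Nfil3 and Csnk1d.

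**Figure D5:**
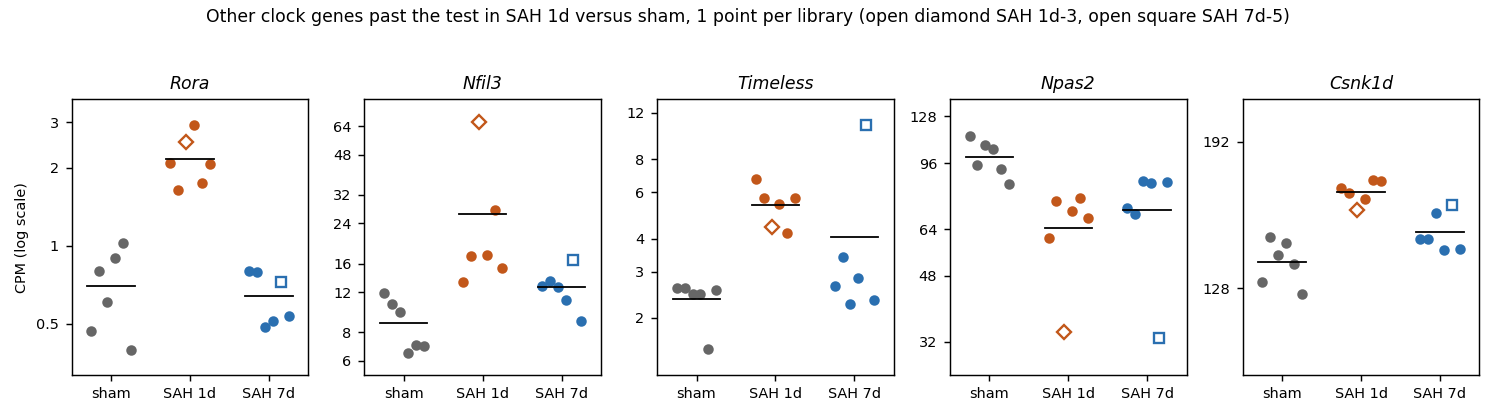
Level in CPM (vertical axis, log scale, different range in each panel) of the 5 other clock genes that passed in SAH 1d versus sham, by group (horizontal axis), with 1 point per library and a line at the mean of 6. In each panel the SAH 1d libraries are separate from sham, and the open diamond of SAH 1d-3 is the highest point of Nfil3 at 67.0 CPM.

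The clock also receives signals from glucocorticoids and from neuronal activity, and lists of genes that respond to each were set beside it. Of 12 tested glucocorticoid response genes 3 rose in SAH 1d against sham, Mt1 by 2.59 ± 0.51, Mt2A by 2.28 ± 0.24 and Cdkn1a by 1.71 ± 0.45 on the log2 scale, and the first 2 are metallothioneins that bind metal ions. Mt1 lay near the floor, at a mean of 0.254 CPM in sham and 1.54 CPM at SAH 1d. This share of calls is near the 25.4% of all genes called there. Of the genes not called, Tsc22d3 had -0.36 ± 0.17, Nr3c2 -0.29 ± 0.20, Fkbp5 -0.12 ± 0.15 and Zbtb16 -0.07 ± 0.28, and the rest had positive values. Without SAH 1d-3 the list had 4 calls, beside 28.5% of all genes. The sum over the list was 278 to 486 CPM in sham, 348 to 721 at SAH 1d and 415 to 810 at SAH 7d. Of 9 immediate early genes, which neurons switch on when active, 3 rose at SAH 1d: Fosb by 2.34 ± 0.76, Npas4 by 2.25 ± 0.49 and Fos by 2.03 ± 0.63. All genes had 25.4% called. Without SAH 1d-3 Npas4 alone was called, 1 of 9 beside 28.5% of all genes. The level of Fos was 212 CPM in SAH 1d-5 and 132 CPM in SAH 1d-3, and 28.1 CPM or less in the other 4. SAH 1d-5 was also the SAH 1d library with the highest Per1, at 66.9 CPM. In SAH 1d-3 Per1 was at 28.6 CPM, and the lowest SAH 1d library had 27.1 CPM. Neither list had a call in SAH 7d against sham or in SAH 7d against SAH 1d, although with both libraries left out the latter had 4 of 12 and 1 of 9, beside 13.6% of all genes. The part of these signals in the clock values was not tested.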

How the data were processed

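Whole-cortex RNA of 18 rats was sequenced by the authors, who removed adapters and low-quality reads and aligned the rest to the rat genome Rnor_6.0. The submitters' processing notes name fastp, HISAT2 and DESeq2 1.16.1 without a role and list the mouse build mm9, while the gene identifiers are those of rat. The deposited counts are whole reads per gene with no normalization, and the FPKM values deposited by the authors are fragments per kilobase and 1e+06 mapped reads. The counting program is not given in the sources used here. Libraries were assigned to groups by the descriptions that equal the column names, and their numbers are those of the columns.

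A low count filter, filterByExpr over the 18 libraries, was applied, and the remaining genes were scaled by TMM and tested with the edgeR 4.0.16 quasi-likelihood F test in R 4.3.3, two-sided, 12 libraries per comparison, with Benjamini-Hochberg adjustment over 18444 genes and calls at an adjusted p under 0.05. Of these, 3100 are loci outside the annotation. The SE was taken as the size of the log2 fold change over the square root of the edgeR F statistic. Intervals are normal 95% intervals from this SE, so they can differ from the edgeR test near its threshold. Correlations used log2 CPM with a prior count of 2, less the group mean, with 100000 permutations within groups or exact enumeration within a group. Python 3.11.15, numpy 2.4.6, pandas 2.3.3, scipy 1.17.1 and matplotlib 3.10.9 were used. The edgeR step was tested on simulated data with known changes.

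The 10 genes and all lists were chosen with earlier results of these data known. The text names all 10 genes. Of the other clock genes it names those called in any comparison or with libraries left out, and Hlf, Usp2 and Noct for their values in SAH 1d-3. Of the glucocorticoid and immediate early lists it names at most 3 called genes each by size. It also names the glucocorticoid genes with a negative change in SAH 1d against sham. It adds the 5 genes most correlated with Dbp and with Arntl. Other normalizations, tests, filters, the FPKM scale, a replicate block and leaving out libraries were tried. The lists were recomputed without SAH 1d-3 and without SAH 7d-5 after seeing that these libraries stand apart. The errors given come from rat to rat variation, since reads without molecular identifiers are not independent molecules.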

Additional observations from a re-analysis of the deposited data

Results flagged for a closer look

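Of 33 combinations of a clock gene or score with a group of 6 rats, 5 held a library far from the nearest of the others by Dixon's criterion. Chance flags about 1 in 20 independent groups, but these genes share their libraries and the score is made of them, so the count was not read against that rate. Of these, 4 were in SAH 1d-3. In this library Dbp was at 15.7 CPM, Nr1d2 at 73.7 CPM and Tef at 107 CPM, each the lowest of the SAH 1d group, and the balance of the loop was -1.32. The fifth was Tef in SAH 7d-5, at 197 CPM, the lowest of the SAH 7d group. Both libraries also stand apart in their markers of cortical excitatory neurons and of monocytes and macrophages. The broader list of neuron markers summed to 5163 CPM in SAH 1d-3, within its group range of 5079 to 6111 CPM. The part of cell makeup in these clock values was not tested.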

How the results depend on the processing

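Of 690 recomputed log2 fold changes of the 10 clock genes, 617 kept their direction and their side of the threshold. The rise of Arntl in SAH 1d against sham passed under every alternative run, with adjusted p from 0.00504 to 0.0488. The count of clock genes called there was 1 and became 2 by adding Cry1 under the DESeq2 Wald test, limma voom and the 3 FPKM settings, and it was 1 to 2 with each rat left out. In SAH 7d against SAH 1d it was 1, and 0 with DESeq2 size factors, without the low count filter and under the replicate block, 2 under voom, 3 with both libraries that stand apart left out, and 0 to 1 with each rat left out.

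Replicate numbers did not pair the rats: correlations of same-numbered libraries were -0.252 to 0.197, and 0, 3 and 2 of 12 libraries in the 3 comparisons correlated best with their own number. Under the block the genes called numbered 3979 instead of 4684 in SAH 1d against sham and 29 instead of 252 in SAH 7d against SAH 1d, where Arntl had an adjusted p of 0.150. In the latter, 1012 genes were called by DESeq2, 2718 by voom and 2512 without both libraries. With all 18 libraries in 1 fit, 2462 were called in SAH 1d against sham. On the log2(FPKM + 0.1) scale the median of all genes shifted by 0.107, and 3747 calls were higher and 956 lower, instead of 2748 and 1936.

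Directions turned only in differences that passed no test, and the cause was not tested. In SAH 1d against sham, voom gave 0.00591 for Per3 and 0.0197 for Tef, the block -0.000123 for Nr1d2, and leaving out both libraries 0.0511 for Per3, 0.0480 for Dbp and 0.0578 for Tef. With each rat left out, Per2 ran from -0.0604 to 0.133, Per3 from -0.246 to 0.0511, Nr1d2 from -0.0433 to 0.191, Dbp from -0.285 to 0.0480 and Tef from -0.175 to 0.0578. In SAH 7d against sham, voom gave -0.0157 for Per3 and 0.0490 for Tef, log2(FPKM + 1) 0.0182 for Tef and 0.0244 for Clock with or without filter, log2(FPKM + 0.1) 0.0182 and 0.0263, and leaving out both libraries 0.0917 for Tef. With each rat left out, Per3 ran from -0.00758 to 0.122 and Tef from -0.0535 to 0.0917. In SAH 7d against SAH 1d, log2(FPKM + 1) gave -0.0173 for Per1 and 0.116 for Dbp, log2(FPKM + 0.1) -0.0204 and 0.130, the block 0.129 for Dbp, and for Per3 voom gave -0.0268 and leaving out both libraries -0.0464. With each rat left out, Per1 ran from -0.110 to 0.239, Dbp from -0.253 to 0.0711 and Tef from -0.0735 to 0.189. Correlations with Arntl turned for Per3 on FPKM, to 0.00775. Without the 2 libraries farthest in Arntl they turned to -0.118 for Nr1d1, -0.216 for Nr1d2, -0.187 for Dbp and -0.0245 for Clock. Without both libraries that stand apart they were -0.334 for Nr1d1, -0.373 for Nr1d2, -0.566 for Dbp and -0.195 for Tef.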
